A study of Rattus norvegicus with 78 samples.

Results

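The NMDA receptor subunit genes Grin1, Grin2a, Grin2b, Grin2c and Grin2d were followed in the hippocampus of 78 rats. They were taken as every probe set of the deposited value table that the platform annotation gives one of these symbols, which found 8 probe sets for 5 of the 10411 gene symbols on the array. All rats were male F344, and the labels name no allele and no drug for any group. Aged rats were 24 to 26 months old and young rats 4 to 6 months old. The untrained rats stayed in the home cage and formed the groups NT-A (aged, 10 rats) and NT-Y (young, 10 rats). The other rats learned the Morris water maze, in which a rat swims to a hidden platform, and the aged ones were divided by their performance relative to young rats. On the last training day, day 5, the groups were 5T-AI (aged impaired, 10 rats), 5T-AU (aged unimpaired, 10 rats) and 5T-Y (young, 10 rats). At 21 days after training they were 21PT-AI (9 rats), 21PT-AU (10 rats) and 21PT-Y (9 rats). Each rat gave 1 RAE230A array, from total RNA of the dorsal part of the left hippocampus, so the replicates are animals.

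The NMDA receptor is a glutamate-gated channel that admits calcium when glutamate binds while the membrane is depolarised, and its calcium signal starts the lasting changes in synaptic strength on which hippocampal place learning depends. Every receptor holds GluN1, the glycine-binding subunit encoded by Grin1, together with GluN2 subunits, which bind glutamate and set the channel's speed and its partners inside the cell. GluN2B (Grin2b) prevails in the young forebrain and GluN2A (Grin2a) joins it as synapses mature, GluN2C (Grin2c) is best known from cerebellar granule cells and some glia and interneurons, and GluN2D (Grin2d) from early development and interneurons.

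All values are array signals, on a linear scale unless log2 is named, and the levels of different probe sets cannot be compared with each other. Tests were run where at least 9 arrays had a signal higher than their own 40th percentile, the filter level, and a difference was called at a Benjamini-Hochberg adjusted p under 0.05 over the 10371 probe sets tested with limma on log2(signal + 1). Deposited arrays shared a trimmed mean of 500.1 at most and 500.08 at least, and their median signals ran from 228.4 to 267.8. The array of 5T-AI replicate 4 stood apart from the others. Without it the count of called probe sets moved by over 1.5 times in 6 of the comparisons with more than 1 call, to 170, against 81 with it, for age in untrained rats, 128 against 210 for 5T-AI and 222 against 142 for 5T-AU over 5T-Y, 293 against 182 for 21PT-AI and 316 against 155 for 21PT-AU over 21PT-Y, and 7 against 3 for 5T-AU over NT-A. The number of subunit probe sets called was the same without it in every comparison. All 7 pyramidal and granule neuron markers on the array passed the filter, as did all 7 astrocyte and all 7 microglial markers, while 5 of 6 choroid plexus and 3 of 4 thalamic markers also did. In tissue RNA of this kind, fewer cells of a type and less RNA per cell cannot be told apart.

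Of the 8 probe sets 6 were tested and 2 were not. Grin1 was read by 2 probe sets, of which 1368572_a_at passed the filter level on 78 arrays and ran from 1066 to 1981, with a median of 1599. The other, 1389900_at, rests on an expressed sequence tag and ran from 88.0 to 277, with a median of 163, and lay above the filter level on 39 arrays. Grin2c (1368306_at) lay above it on all 78 arrays and ran from 536 to 1073.

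Grin2a and Grin2b were read close to the filter level. Grin2a 1387400_at lay above it on 69 arrays, Grin2b 1369745_at on 52 and Grin2a 1368985_at on 14. On the log2 scale the SD between rats of a group was 0.58 for Grin2a 1387400_at and 0.47 for Grin2a 1368985_at, against 0.18 for Grin1 1368572_a_at and 0.21 for Grin2c. Neither Grin2d probe set was above the filter level on any array. Grin2d 1368951_at ran from 58 to 121 and Grin2d 1368950_a_at from 3.7 to 72.5, so Grin2d was not tested in the main comparisons. With no filter, limma called neither Grin2d probe set in any comparison, and the only unadjusted p under 0.05 was that of 1368951_at in impaired against unimpaired rats over both days (-0.20 ± 0.08, limma, unadjusted p = 0.0172, adjusted p = 0.824). Group means of Grin2d 1368951_at lay between 84.3 in 21PT-AI and 98.4 in 5T-AU, and those of 1368950_a_at between 31.9 in NT-Y and 41.0 in 21PT-AU and 21PT-Y.

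**Figure D1:**
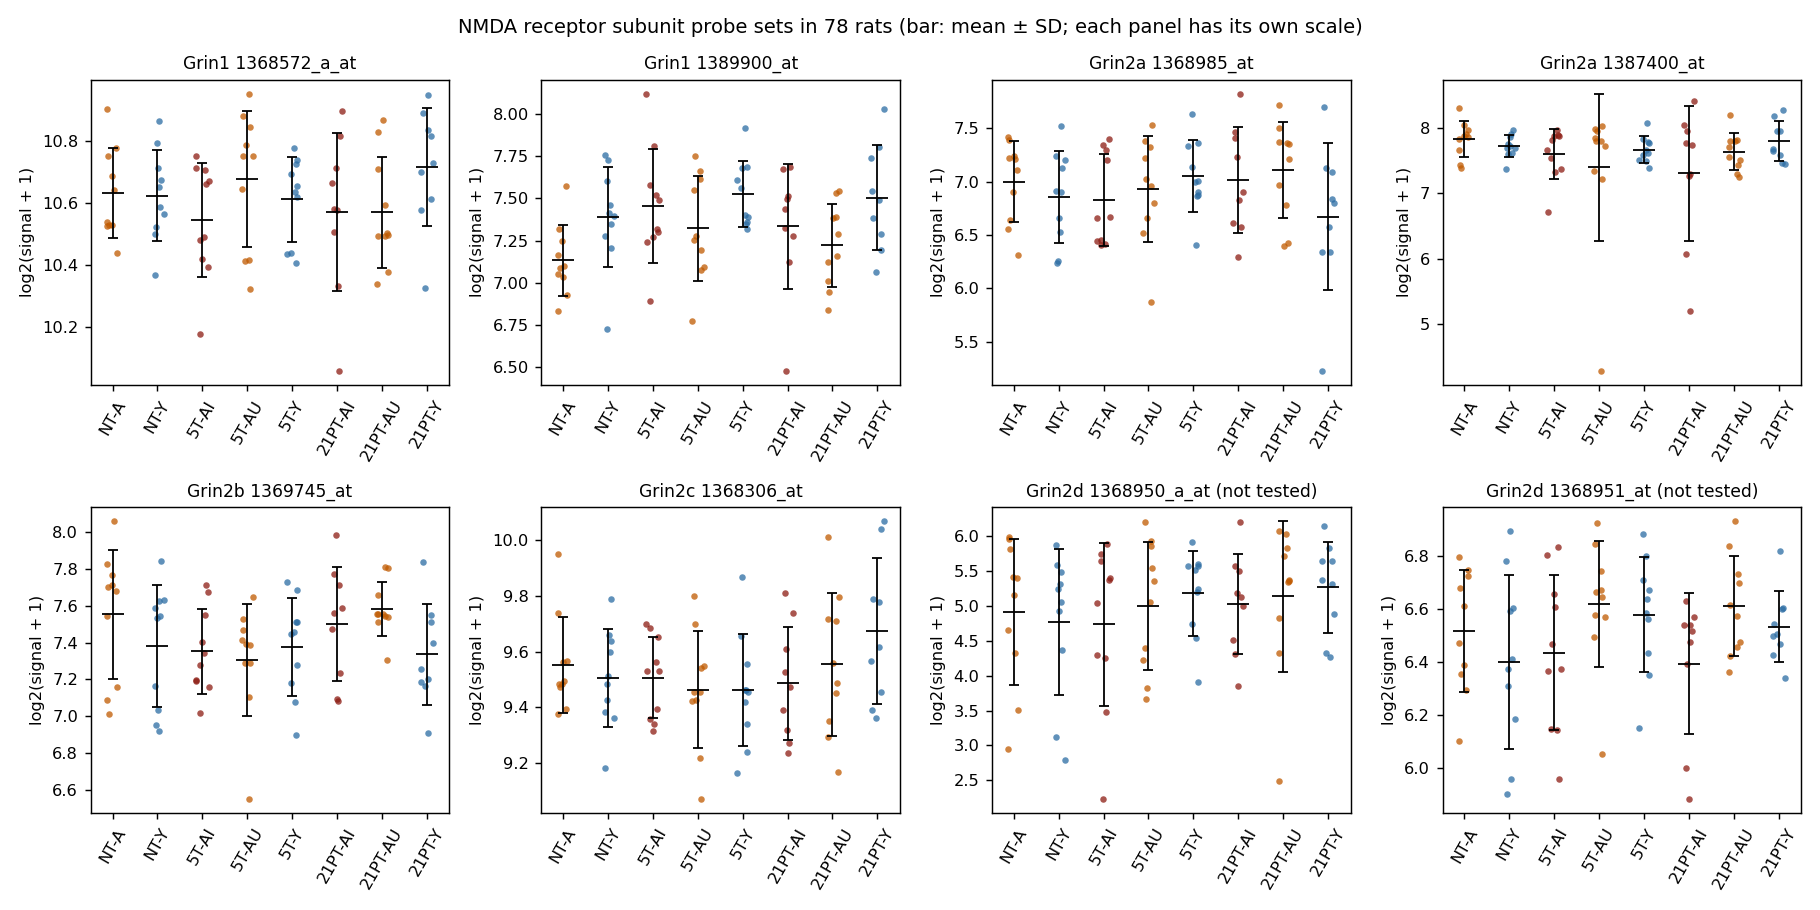
Signal of the 8 subunit probe sets as log2(signal + 1) in each of the 78 rats (points), by group, with the mean and SD of each group (bars); brown points are aged impaired, orange aged unimpaired or untrained aged, blue young. Groups overlapped in every panel, and Grin2a 1387400_at had a few low rats, the lowest at a signal of 18.5 in 5T-AU and 35.8 in 21PT-AI.

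The 8 groups differed little from each other in any subunit. Group means explained between 7.97% and 18.1% of the variance of the 6 tested probe sets on the log2 scale, where the median over all tested probe sets was 9.96% and the 90th percentile 19.9%. The highest of these shares belonged to Grin1 1389900_at. In the order of group mean log2 signals, no pair of neighbouring groups stood further apart than 0.46 of their SD between rats, for any of the 6 tested probe sets, and the widest such step was that of Grin2c between 21PT-Y and 21PT-AU. From the lowest group to the highest, Grin1 1389900_at ran NT-A, 21PT-AU, 5T-AU, 21PT-AI, NT-Y, 5T-AI, 21PT-Y and 5T-Y, with a mean of 141 ± 21.6 in NT-A and of 185 ± 26.5 in 5T-Y (SD, n = 10 each). Grin1 1368572_a_at was lowest in 5T-AI (1505 ± 184, n = 10) and highest in 21PT-Y (1693 ± 213, n = 9). Grin2a 1387400_at was lowest in 21PT-AI and highest in NT-A, Grin2a 1368985_at lowest in 21PT-Y and highest in 21PT-AU, Grin2b lowest in 5T-AU and highest in 21PT-AU, and Grin2c lowest in 5T-Y and highest in 21PT-Y.

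The first question was whether subunit expression differed with age. One of the 6 tested probe sets did, 1389900_at, which the platform annotation assigns to Grin1 and which was lower in aged rats, while the other Grin1 probe set and the probe sets of Grin2a, Grin2b and Grin2c were not called. Over the mean of the 3 cohorts 8.78% of all tested probe sets were called and 3.47% were called lower, and a single call among 6 is too few to set against these shares. Whether 1389900_at reads Grin1 transcripts was not checked here.

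Among untrained rats the signal of Grin1 1389900_at had a lowest value of 113, a median of 135 and a highest of 189 in NT-A, against 105, 169 and 216 in NT-Y. In NT-A 9 of 10 rats lay below the NT-Y mean, and the ranges overlapped. On day 5 the 20 aged rats had a lowest value of 108, a median of 157 and a highest of 277, against 159, 178 and 241 in 5T-Y. Of the aged rats 13 of 20 lay below the 5T-Y mean, and the highest value of all was that of an aged impaired rat. On day 21 the 19 aged rats had a lowest value of 88.0, a median of 159 and a highest of 205, against 133, 179 and 260 in 21PT-Y. Of them 14 of 19 lay below the mean of 21PT-Y, and the ranges overlapped again.

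The mean of the 3 age differences for Grin1 1389900_at was -0.21 ± 0.07 (SE) on the log2 scale, a fold of 0.866 (limma, adjusted p = 0.0410). In single cohorts it was -0.26 ± 0.13 in untrained rats, -0.14 ± 0.11 on day 5 and -0.23 ± 0.12 on day 21, and none of these was called by limma (adjusted p = 0.556, 0.713 and 0.312). Within the 3 chip lots, which each hold rats of every group, the mean difference was -0.30, -0.20 and -0.14. Without 5T-AI replicate 4 the mean over all rats was -0.20 ± 0.07 (limma, adjusted p = 0.0478). The age call lay close to the threshold, since it was not made when all probe sets were tested without a filter (adjusted p = 0.0562), with the fluidics module as a term (0.130), with a term for the animal code's first letter (0.0689) or with the actin ratio described below as a covariate (0.0688), nor when any 1 of 19 of the 78 arrays was left out. Those 19 arrays are replicates 1, 3, 5 and 7 of NT-A, replicates 2, 3, 4, 8 and 10 of NT-Y, replicate 2 of 5T-AU, replicates 1, 3, 5 and 8 of 5T-Y, replicate 8 of 21PT-AI, replicate 9 of 21PT-AU and replicates 2, 3 and 6 of 21PT-Y. Without one of them the adjusted p reached up to 0.0753, and over all 78 omissions the difference stayed between -0.23 and -0.19.

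The other Grin1 probe set gave no such difference. Grin1 1368572_a_at had a lowest value of 1387, a median of 1542 and a highest of 1912 in NT-A, against 1322, 1573 and 1862 in NT-Y, which nearly coincide. Its mean age difference was -0.05 ± 0.04, with a 95% interval from -0.13 to 0.04 (limma, adjusted p = 0.590), and on day 21 it was -0.14 ± 0.07 (limma, adjusted p = 0.308). Over the 78 arrays the 2 Grin1 probe sets correlated at only 0.20, or 0.21 after group means were removed, as a description of arrays that share their processing.

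Among the GluN2 genes the age differences were small or imprecise. Grin2c differed by -0.03 ± 0.05, with an interval from -0.12 to 0.07, the tightest of the GluN2 genes. Grin2b differed by 0.11 ± 0.07, from -0.02 to 0.24. The Grin2a probe sets pointed to opposite sides, at 0.12 ± 0.11 for 1368985_at and -0.13 ± 0.13 for 1387400_at, and neither was called (limma, adjusted p = 0.575 and 0.629). The smallest unadjusted p of a GluN2 probe set in an age comparison was on day 21, for Grin2a 1368985_at. Its signal had a lowest value of 77.7, a median of 147 and a highest of 226 in the 19 aged rats, against 36.4, 110 and 207 in 21PT-Y. Aged rats thus lay higher at the median, in 14 of 19 cases above the mean of 21PT-Y, but most of both ranges was shared. The difference was 0.39 ± 0.19 (limma, unadjusted p = 0.0393, adjusted p = 0.266), and over all probe sets 16.7% had an unadjusted p under 0.05 in that comparison. This probe set moved with the RNA quality ratios described below, and with them as covariates the difference was 0.17 (Gapdh) and 0.03 (actin). It was 0.21 without 21PT-Y replicate 6 (unadjusted p = 0.248, limma), the lowest of 28 single omissions, and 0.52 without 21PT-Y replicate 9, the highest.

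By cohort, 0 of the 6 subunit probe sets were called by limma in untrained rats, on day 5 or on day 21, where 0.781%, 2.5% and 2.84% of all probe sets were called. At an unadjusted p under 0.05 there were 1, 0 and 1 of the 6, against 8.73%, 12.2% and 16.7% of all probe sets. With impaired and unimpaired rats each set against young rats of their day, 0 of 6 were called in any of the 4 comparisons, against 2.02% of all probe sets by limma for 5T-AI, 1.37% for 5T-AU, 1.75% for 21PT-AI and 1.49% for 21PT-AU. At an unadjusted p under 0.05 there were 0 of 6 for 5T-AI, 5T-AU and 21PT-AI, against 12%, 9.54% and 12.1% of all probe sets, and 2 of 6 for 21PT-AU, against 15.9%. The 2 were -0.28 ± 0.13 for Grin1 1389900_at and 0.44 ± 0.21 for Grin2a 1368985_at, which was 0.26 without 21PT-Y replicate 6. The change of the age difference between cohorts was called by limma for none of the 6, from untrained to day 5 or from day 5 to day 21 (0% of all probe sets, with 3.72% and 6.38% at an unadjusted p under 0.05). From day 5 to day 21 it was 0.56 ± 0.26 for Grin2a 1368985_at (limma, unadjusted p = 0.0321, adjusted p = 0.753), the only 1 of the 6 under 0.05 unadjusted, and from untrained to day 5 there were 0 of 6. With the Gapdh and the actin ratio as a covariate it was 0.16 and 0.19.

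**Figure D2:**
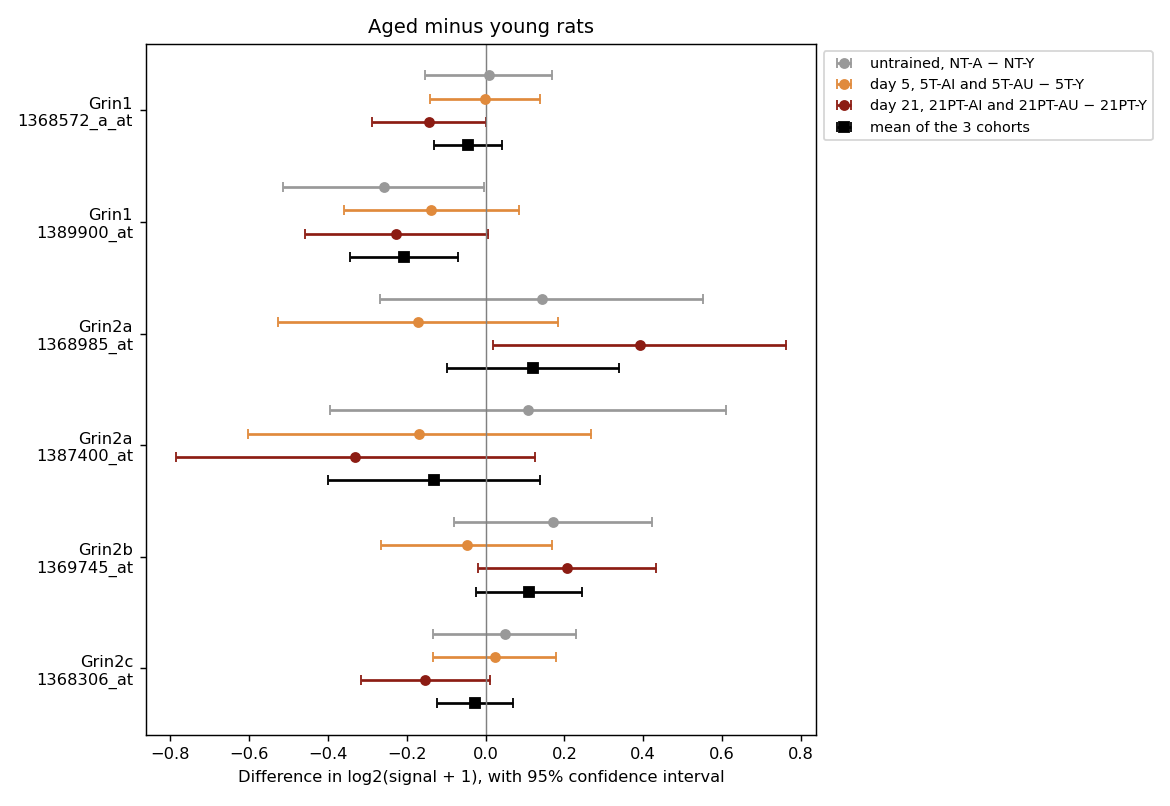
Aged minus young difference in log2(signal + 1) for the 6 tested probe sets, in untrained rats, on day 5, on day 21 and as the mean of the 3 cohorts, with 95% confidence intervals from the limma fit. The interval of the mean lies wholly below 0 for Grin1 1389900_at, from -0.34 to -0.07, and spans 0 for the other 5 probe sets.

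Aged rats also differed from young ones in the RNA of other cell types, and the part of this in the Grin1 difference was not tested. Each marker was read by its brightest probe set. With age 5 of 7 tested microglial markers rose and 0 fell, and their summed signal ran from 3707 to 16340 in aged rats, against 2535 to 3192 in young rats, without overlap. Of the astrocyte markers 3 of 7 rose and 0 fell, with sums from 29839 to 39364 in aged rats and from 28698 to 36253 in young rats. Among neuronal markers, 1 of 7 of pyramidal and granule neurons (Camk2a) and 1 of 6 of interneurons (Gad1) fell and 0 rose. The summed signal of the pyramidal and granule neuron markers ran from 21392 to 36076 in aged rats and from 30759 to 35414 in young rats, and that of the interneuron markers from 4486 to 8677 and from 6419 to 8770. Of the oligodendrocyte markers 1 of 6 rose, with sums from 22898 to 35971 in aged rats and from 23818 to 31401 in young rats. No choroid plexus or thalamus marker was called, with sums from 1726 to 5913 and from 678 to 1862 in aged rats, against 1675 to 2835 and 727 to 1736 in young rats. Both red cell markers rose, with sums from 1707 to 14116 in aged rats and from 1558 to 2997 in young rats, and 1 of 3 vessel markers rose, with sums from 1101 to 2627 and from 1151 to 2106.

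The second question was whether aged rats that failed to learn differed in these receptors from aged rats that learned. By limma no subunit probe set was called in impaired against unimpaired rats, on day 5, on day 21 or as the mean of both days, nor was any of the 10371 probe sets (0%). At an unadjusted p under 0.05 there were also 0 of 6 subunit probe sets in each of these comparisons, where 4.58%, 4.6% and 5.86% of all probe sets lay under it.

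For the obligatory subunit, Grin1 1368572_a_at had a lowest value of 1159, a median of 1528 and a highest of 1723 in 5T-AI, against 1281, 1724 and 1981 in 5T-AU. The impaired rats lay lower at the median, 7 of 10 below the mean of 5T-AU, within overlapping ranges. On day 21 it had a lowest value of 1066, a median of 1531 and a highest of 1904 in 21PT-AI, against 1295, 1448 and 1868 in 21PT-AU. There the median was higher in impaired rats. The differences were -0.13 ± 0.08 on day 5, or -0.09 ± 0.08 without 5T-AI replicate 4, and 0.00 ± 0.08 on day 21, and their mean was -0.06 ± 0.06, with an interval from -0.18 to 0.05 (limma, adjusted p = 0.869). Grin1 1389900_at had the opposite sign, with a mean of 0.12 ± 0.09 and an interval from -0.06 to 0.31. Without 5T-AI replicate 4 the means were -0.04 and 0.15.

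Grin2b, whose product carries the docking site for the kinase CaMKII, had a lowest value of 129, a median of 158 and a highest of 209 in 5T-AI, against 92.7, 167 and 199.7 in 5T-AU. On day 21 it had a lowest value of 135, a median of 188 and a highest of 252 in 21PT-AI, against 157, 187 and 223 in 21PT-AU. On both days the medians lay close together. The mean difference was -0.02 ± 0.09, with an interval from -0.20 to 0.16. For Grin2c it was -0.01 ± 0.07, from -0.14 to 0.12. For Grin2a it was -0.10 ± 0.15 (1368985_at) and -0.06 ± 0.18 (1387400_at), and the interval of the second, from -0.42 to 0.30, is the widest of the 6. For 1387400_at the days differed in sign, at 0.20 ± 0.25 on day 5 and -0.33 ± 0.26 on day 21, and its mean was -0.24 without 5T-AU replicate 3 and 0.07 without 21PT-AI replicate 7. Without 5T-AI replicate 4 the mean was -0.016 for Grin2b, -0.022 for Grin2c and -0.07 for each Grin2a probe set. The change of the impairment difference between the days was called by limma for none of the 6, nor for any other probe set, and 0 of the 6 had an unadjusted p under 0.05, against 3.35% of all probe sets.

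The balance of Grin2b to Grin2a was also compared rat by rat, as the difference of their log2 signals, a measure added after the values were seen. Its level has no meaning of its own, since it joins different probe sets, and only its change between groups was tested. In 21PT-AI the difference to Grin2a 1387400_at averaged 0.20 ± 0.93 (SD, n = 9), against -0.05 ± 0.27 in 21PT-AU (n = 10). The change between them was 0.24, which is within the spread between rats (exact permutation test, two-sided, p = 0.445). Over 10 such comparisons, with both Grin2a probe sets, in 3 cohorts of aged against young and 2 of impaired against unimpaired rats, the smallest p was 0.0294 (exact permutation test, two-sided, adjusted over the 10 p = 0.294). That was 0.07 ± 0.66 in the 19 aged rats of day 21, against -0.46 ± 0.36 in the 9 rats of 21PT-Y, with Grin2a 1387400_at, and with Grin2a 1368985_at the same comparison had the other sign, at 0.48 ± 0.36 and 0.66 ± 0.59. For Grin2a 1387400_at by itself the age difference on day 21 was -0.33, and -0.20 without 21PT-AI replicate 7. The balance was not tested without that rat.

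**Figure D3:**
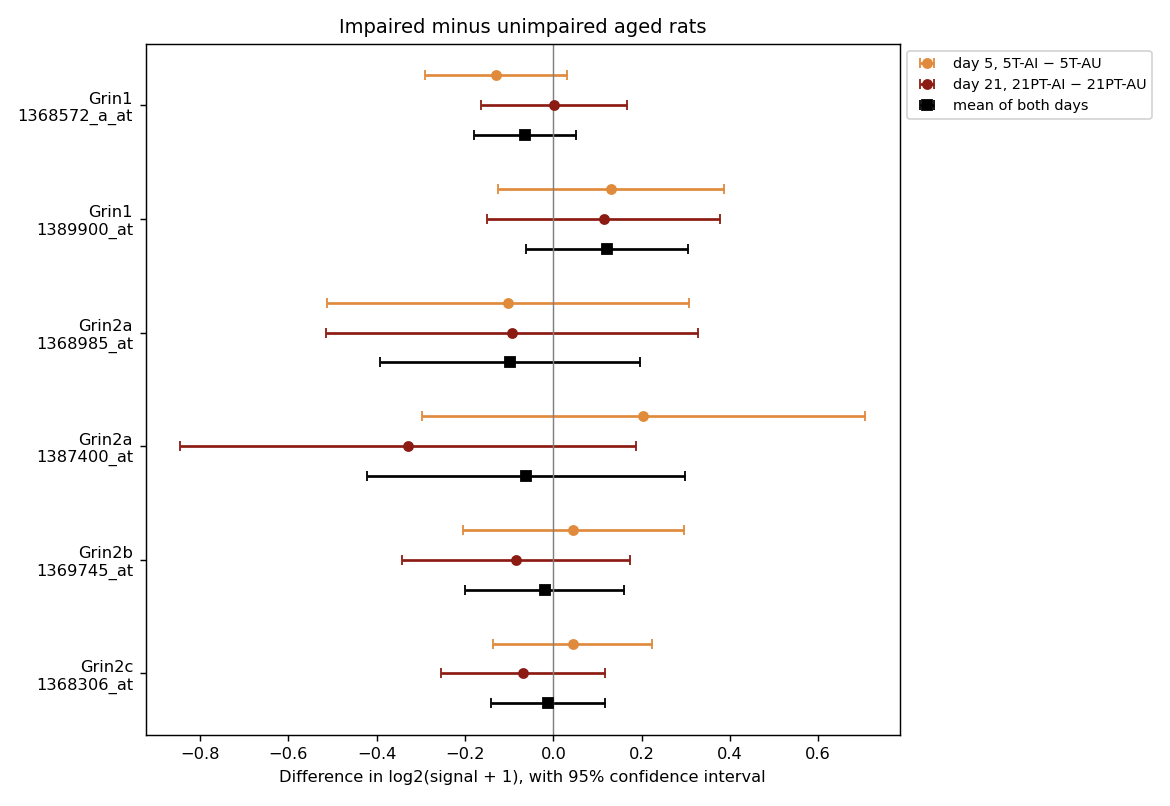
Impaired minus unimpaired difference in log2(signal + 1) among aged rats for the 6 tested probe sets, on day 5, on day 21 and as the mean of both days, with 95% confidence intervals from the limma fit. All intervals span 0, and the narrowest means are those of Grin1 1368572_a_at and Grin2c.

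Training and the time since training were compared next. No subunit probe set was called on day 5 against untrained rats of the same age, in 5T-Y, 5T-AU or 5T-AI, where 0.0675%, 0.0289% and 0.0868% of all probe sets were called by limma. At an unadjusted p under 0.05 there were 0, 0 and 1 of the 6, against 3.16%, 5.57% and 10.4% of all probe sets. The largest of these differences relative to its error was that of Grin1 1389900_at in 5T-AI, which had a lowest value of 118, a median of 168 and a highest of 277, against 113, 135 and 189 in NT-A. Trained impaired rats lay higher at the median, with shared ranges, and the difference was 0.32 ± 0.13 (limma, unadjusted p = 0.0149, adjusted p = 0.352). Without 5T-AI replicate 4 it was 0.38 ± 0.13 (limma, adjusted p = 0.276), the highest of 20 single omissions. Without 5T-AI replicate 1 it was 0.25 (limma, unadjusted p = 0.0576), the lowest. For the same probe set the difference was 0.19 ± 0.13 in 5T-AU against NT-A and 0.13 ± 0.13 in 5T-Y against NT-Y. The comparisons of 5T-AI and 5T-AU share the NT-A rats, which had the lowest mean of all groups in this probe set.

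At 21 days after training 0 of 6 were called against untrained rats, in young or in aged rats, as was no other probe set by limma (0%), and 0 of 6 had an unadjusted p under 0.05, against 2.44% of all probe sets in young rats and 5.54% in aged rats. Between day 21 and day 5, 0 of 6 were called in young rats (0.0964% of all probe sets), in unimpaired rats (0%) or in impaired rats (0.00964%). At an unadjusted p under 0.05 there were 1, 1 and 0 of the 6, against 7.37%, 4.72% and 4.89% of all probe sets. In young rats Grin2c had a lowest value of 656, a median of 783 and a highest of 1073 in 21PT-Y, against 573, 702 and 934 in 5T-Y. It lay higher on day 21 by 0.21 ± 0.09 (limma, unadjusted p = 0.0260, adjusted p = 0.631), and by 0.02 in the fit that holds a term for the first letter of the code. The only letter that 21PT-Y and 5T-Y share is K, held in 5T-Y by replicate 1 alone, so letter and day can hardly be told apart here. In unimpaired rats Grin2b had a lowest value of 157, a median of 187 and a highest of 223 in 21PT-AU, against 92.7, 167 and 199.7 in 5T-AU, higher by 0.28 ± 0.13 (limma, unadjusted p = 0.0302, adjusted p = 0.996). That difference was 0.19 without 5T-AU replicate 3 (limma, unadjusted p = 0.119), the lowest of 20 single omissions. It was 0.32 without 5T-AU replicate 4, the highest. Homer1 1370454_at, a probe set of a scaffold gene of the same synapse, differed by -0.88 ± 0.12 between 21PT-Y and 5T-Y in the fit of all arrays (limma, adjusted p = 1.37e-06).

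Among rats of the same group, the time a rat needed to reach the platform was set against its subunit signals, in the 58 trained rats. Times averaged 50.1 ± 8.05 s in 5T-AI, 16.2 ± 2.47 s in 5T-AU and 10.9 ± 5.52 s in 5T-Y, and 54.9 ± 14.2 s in 21PT-AI, 16.8 ± 1.77 s in 21PT-AU and 10.5 ± 4.20 s in 21PT-Y, where the aged groups differ because they were formed on performance. Times were therefore centred on the group means and expressed per pooled SD, 7.19 s. By limma no slope of the 6 subunit probe sets was called, nor of any other probe set (0%). At an unadjusted p under 0.05 there were 3 of 6, where 6.94% of all probe sets lay under it.

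The steepest slope was that of Grin2a 1387400_at, whose signal was higher in slower rats by 0.24 ± 0.08 log2 per SD (limma, unadjusted p = 0.00476, adjusted p = 0.541). Pearson's r of the centred values was 0.36 (permutation within groups, p = 0.0292) and Spearman's rho 0.36 (permutation p = 0.00515), or 0.175 and 0.0618 after adjustment over 12 relations of the 6 probe sets with 2 maze measures. It was above 0 in 6 of 6 groups, from 0.06 to 0.61, and 0.29 without the 2 rats farthest from the median time. Within chip lots it was -0.07, 0.65 and 0.48. The limma slope was 0.16 without 21PT-AI replicate 7 (unadjusted p = 0.0368), the lowest of 58 single omissions. Without 21PT-AI replicate 2 it was 0.27, the highest. Centred times spread most in 21PT-AI (SD 14.2 s) and 5T-AI (8.05 s), against 1.77 s in 21PT-AU. The slopes of Grin2c and Grin1 1368572_a_at were 0.06 ± 0.03 and 0.05 ± 0.03 (limma, adjusted p = 0.706 for each), and that of Grin2c was -0.019 with the scan day as a block. Without 21PT-AI replicate 5 the slopes were 0.05 and 0.03 (limma, unadjusted p = 0.119 and 0.229), the lowest of 58 single omissions for each. Pearson's r was 0.27 for each (permutation within groups, p = 0.0265 and 0.0865), and above 0 in 3 of 6 and 5 of 6 groups. With the time spent near the platform site in the probe trial in place of the latency, signed so that a higher value means poorer recall, the slopes of these 3 probe sets were 0.03, 0.02 and 0.01.

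**Figure D4:**
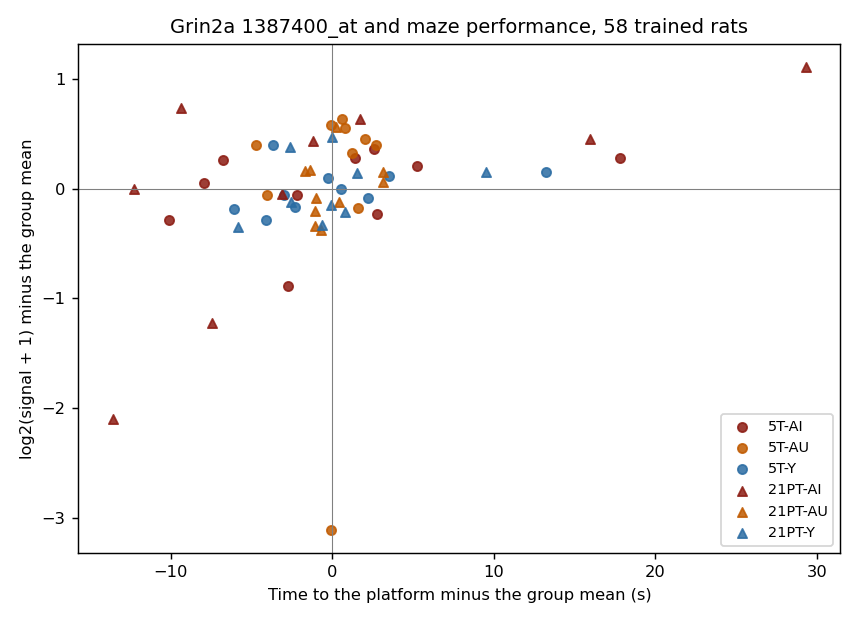
Signal of Grin2a 1387400_at against the time to the platform in the 58 trained rats, both as differences from the group mean, with 1 point per rat and colours and shapes for the groups. The slowest rats of 21PT-AI lie above 0 and 2 fast rats of that group lie far below, and 1 rat of 5T-AU lies lowest, at a signal of 18.5.

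The signals of Grin2a and Grin2b moved with the quality of the RNA on the array. The measure was the ratio of 3′ to 5′ probe set signal of the Gapdh and actin controls, which is higher where labelled RNA is cut short, and it ran from 0.04 to 0.59 for Gapdh and from 0.28 to 1.53 for actin on the log2 scale. After group means were removed, Grin2a 1368985_at fell as the Gapdh ratio rose, with Pearson's r of -0.67 and Spearman's rho of -0.69, and Grin2b 1369745_at likewise, with -0.49 and -0.53. Permutation within groups gave p = 1e-05 for both measures of Grin2a 1368985_at, the smallest that 100000 permutations can give, and p = 5e-05 and 3e-05 for Grin2b. Adjusted over 12 relations of the 6 probe sets with both ratios, the Pearson values were 4e-05 and 0.00015. The permutations exchanged arrays of different chip lots and scan days. Chip lots alone covered 27.8% of the variance of Grin2a 1368985_at and 18.7% of that of Grin2b. The relation was negative in 8 of 8 groups for both probe sets. It was -0.66 and -0.54 without the 2 arrays farthest from the median ratio.

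Within the 3 chip lots the relation to the Gapdh ratio was -0.60, -0.67 and -0.32 for Grin2a 1368985_at and -0.18, -0.32 and -0.39 for Grin2b. For the actin ratio Pearson's r was -0.66 and -0.54 (permutation within groups, p = 1e-05, adjusted p = 4e-05 for each), and Spearman's rho -0.64 and -0.57. The second Grin2a probe set had -0.15 with the Gapdh ratio (adjusted permutation p = 0.358). Grin2c had 0.00 (adjusted permutation p = 0.993) and Grin1 1368572_a_at 0.08 (0.558). Within the chip lots these were -0.43, -0.13 and -0.16 for Grin2c and -0.10, 0.06 and -0.35 for Grin1 1368572_a_at. For Grin1 1389900_at Pearson's r to the actin ratio was 0.30 (permutation p = 0.0138, adjusted p = 0.0332) and Spearman's rho 0.27 (permutation p = 0.0240, adjusted p = 0.0575), with 0.27 for r without the 2 farthest arrays and 0.30, 0.01 and 0.38 within the chip lots.

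The quality ratios differed between groups on day 21. The Gapdh ratio averaged 0.30 ± 0.11 in 21PT-AI, 0.21 ± 0.08 in 21PT-AU and 0.33 ± 0.12 in 21PT-Y, and the actin ratio 0.76 ± 0.28, 0.60 ± 0.23 and 0.99 ± 0.38 in the same order. With the Gapdh and the actin ratio as a covariate, the difference of Grin2a 1368985_at in 21PT-AU against 21PT-Y was 0.08 and -0.022 in place of 0.44. The day 21 minus day 5 difference of Grin2b in unimpaired rats was 0.15 and 0.24 in place of 0.28.

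**Figure D5:**
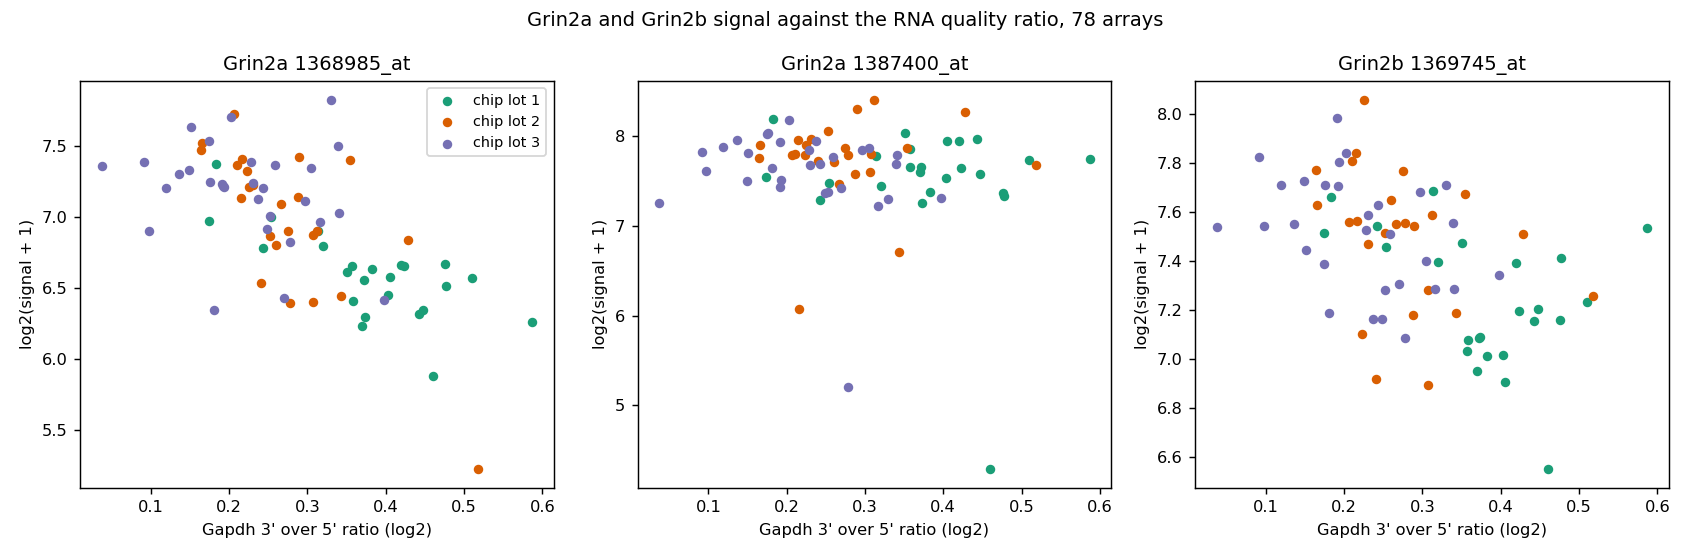
Signal of both Grin2a probe sets and of Grin2b as log2(signal + 1) against the Gapdh 3′ over 5′ ratio (log2), 1 point per array, coloured by chip lot. Signal falls from left to right for Grin2a 1368985_at and Grin2b 1369745_at, while Grin2a 1387400_at stays near 7.7 apart from a few low arrays.

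Over the 78 arrays Grin2a 1368985_at correlated with Grin2b at 0.62, more than with the other Grin2a probe set at 0.27, and Grin1 1368572_a_at correlated with Grin2c at 0.45. Grin2a 1387400_at correlated with Grin2b at 0.42, with Grin2c at 0.37 and with Grin1 1368572_a_at at 0.31. These are descriptions of arrays that share labelling and scan days. Scan days alone covered 35.8% of the variance of Grin2a 1368985_at and 35.3% of that of Grin2c, where the median over all tested probe sets was 24.2%.

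Of all genes with a single symbol, those most like Grin2a 1368985_at over the 78 arrays were Dnal1 (Pearson's r 0.85), Syt4, Zbtb18, Tmod2 and Rab6a (0.83). Those most like Grin2b were Aqp4, the water channel of astrocytes (0.72), Aplp2, Map1b, Dnajc5 and Wdr7 (0.67). For all 10 the correlation with the Gapdh ratio was negative, from -0.78 to -0.68. Those most like Grin1 1368572_a_at were KIAA0319l (0.68), Eef1a2, Galnt16, Insyn1 and Vamp1, of which Eef1a2 is the elongation factor of neurons and muscle and Vamp1 a synaptic vesicle protein. Grin1 1389900_at was most like the long noncoding RNA genes Miat (0.64) and Meg3 (0.58), followed by Camk2a (0.57), Celsr3 and Fbrsl1. For Grin2c they were Adamtsl4 (0.62), Mknk1, Hdac7, Cpa3 and Agtpbp1, and for Grin2a 1387400_at Dhcr7 (0.51), Gtf2f2, Igfbp2, Tcam1 and Vps33b. With group means removed, each of these correlations lay within 0.08 of the value over all arrays.

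Genes whose products bind, anchor or act on the receptor were taken from a list of 65 symbols, of which 52 were on the array and 46 tested, through 77 probe sets. With age 6 of the 77 probe sets, of 5 genes, fell and 0 rose over the mean of the 3 cohorts. These falls are 7.79% of the list, against 3.47% of all tested probe sets called lower. Calls of either sign were 7.79% of the list, against 8.78% of all tested probe sets. Over the alternatives the falls numbered from 2, with the fluidics module as a term (2.6% of either), to 8, with the scan day as a block. Rises numbered from 0 to 2, the most with the Gapdh ratio as a covariate or a term for the animal code's first letter. The median age difference was -0.03 over the list and -0.01 over all tested probe sets. The genes that fell were Homer1 and the scaffold genes Dlg3 and Lin7b, the neuronal glutamate transporter gene Slc1a1, and Camk2a, the kinase that binds GluN2B after calcium entry. Homer1, whose long products link the receptor's scaffold to metabotropic glutamate receptors, gave 2 of the 6 and the others 1 each, and the further probe sets of Homer1 (3), Dlg3 (2), Camk2a (2) and Slc1a1 (1) were not called. Which products each Homer1 probe set reads, long or short, was not checked.

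Homer1 1370454_at had the largest of these falls. On day 5 it had a lowest value of 504, a median of 793 and a highest of 1064 in aged rats, against 1055, 1187 and 1420 in 5T-Y. All 20 aged rats lay below the 5T-Y mean, and the ranges shared only a narrow edge. The mean age difference was -0.32 ± 0.06 (limma, adjusted p = 8.56e-05), and on day 5 alone it was -0.64 ± 0.10 (limma, adjusted p = 4.98e-06). Camk2a 1388187_at averaged 4913 ± 616 in the 19 aged rats of day 21, against 5565 ± 436 in 21PT-Y (n = 9). On day 5 the means were 4831 ± 802 in aged rats and 5467 ± 405 in 5T-Y. In untrained rats they lay closer, at 5153 ± 558 in NT-A and 5299 ± 621 in NT-Y. Its mean age difference was -0.14 ± 0.04 (limma, adjusted p = 0.0302), while Camk2a 1389824_at had -0.06 ± 0.05 and 1368935_at 0.01 ± 0.12.

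Dlg3 1372041_at fell with age by 0.11, Lin7b 1370078_at by 0.13 and Slc1a1 1370367_at by 0.09 on the log2 scale (limma, adjusted p = 0.0333, 0.0405 and 0.0346). Dlg4, which encodes the PSD-95 scaffold that anchors GluN2 tails, had mean age differences of -0.11 ± 0.04, -0.05 ± 0.06 and 0.01 ± 0.08 over its probe sets 1387210_at, 1371183_a_at and 1389901_at, none of them called (limma, adjusted p = 0.0931, 0.663 and 0.976). Grina 1372724_at, named for a receptor-associated protein, had 0.03 ± 0.03.

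In single comparisons the list held few other calls. Dlg1 1368944_at rose on day 21, by 0.50 ± 0.14 in aged against young rats (limma, adjusted p = 0.0321), with a lowest value of 182, a median of 296 and a highest of 388 in aged rats, against 76.6, 233 and 268 in 21PT-Y. The other Dlg1 probe set was not called. The RNA quality ratios also differed between these groups, and with the Gapdh and the actin ratio as a covariate the difference was 0.35 and 0.25 and no longer called (limma, adjusted p = 0.122 and 0.468). Homer1 1370454_at rose with training in young rats, 5T-Y against NT-Y, by 0.59 ± 0.12 (limma, adjusted p = 0.00719). In impaired against unimpaired rats 0 of the 77 probe sets were called on either day.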

How the data were processed

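Each of 78 rats gave 1 array. Per the submitters' processing notes the authors used GCOS 1.1 with its MAS5 algorithm, and the table they deposited gives an intensity per probe set that is linear and was not normalized again here. The records of each array gave its chip lot, scan day and fluidics module. Maze values came from the deposited animal table, in seconds, the only other measure used, and were matched to arrays by its chip identifier. Of 15923 probe sets 57 controls were left out, and of the others 12783 carried 1 symbol in the platform annotation, 312 several and 2771 none. Signals were taken as log2(signal + 1).

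Probe sets above the 40th percentile of their own array on at least 9 arrays, 10371 in all, entered a model of 8 group means in limma 3.58.1 under R 4.3.3, with lmFit and an eBayes prior that follows the mean intensity. Slopes used 58 trained rats and 6 group means. Fits were tested on simulated data. Correlations used 100000 permutations within groups. The members and gene lists were chosen with earlier results of these data known. All member probe sets are named; of the receptor partners Dlg4, Camk2a and Grina were named always, with up to 4 others that passed in a comparison. Alternatives were another normalization, a pseudocount of 32, no filter, terms for replicate number, scan day, fluidics module, animal code letter and RNA quality ratios, single arrays left out, and, added after the data were seen, chip lot. The number of arrays limits the precision.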

Additional observations from a re-analysis of the deposited data

Results flagged for a closer look

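In 64 tests, of the 8 subunit probe sets in 8 groups, 6 values, from 5 rats, lay farther from the others of their group than Dixon's 95% critical value allows on the log2 scale, where chance alone flags about 1 in 20 groups. All 6 values were the lowest of their group. Grin2a 1387400_at had a signal of 18.5 in 5T-AU replicate 3, with 148 to 260 in the other 9 rats. The same rat was the lowest of its group in Grin2b 1369745_at, at 92.7 with 137 to 199.7 in the others. Its Gapdh ratio was 0.46 on the log2 scale, near the upper end of the range of its group, from 0.17 to 0.48. Its actin ratio was 1.14, the highest of its group, where the median was 0.62. Grin2a 1387400_at was at 103.9 in 5T-AI replicate 9, with 158 to 248 in the others. Grin1 1389900_at was at 88.0 in 21PT-AI replicate 8, with 138 to 205 in the others. Grin2d 1368950_a_at was at 4.6 in 21PT-AU replicate 9, with 19.0 to 66.8 in the others, and Grin2d 1368951_at at 65.4 in 5T-AU replicate 9, with 89.1 to 120 in the others. No difference of an effect between cohorts or days passed the test for a subunit probe set.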

How the results depend on the processing

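The count of subunit probe sets called with age over the mean of the 3 cohorts was 1. It stayed 1 with quantile normalization, a pseudocount of 32, the scan day or chip lot as a block, the Gapdh ratio as a covariate and without 5T-AI replicate 4, whose mean correlation to the other arrays was the lowest. It was 0 with no filter, with the fluidics module, with the animal code letter and with the actin ratio, and between 0 and 1 when single arrays were left out. Grin1 1389900_at, the probe set behind it, then had differences from -0.24 (quantile normalization) to -0.17 (pseudocount of 32), with -0.21, -0.21, -0.19 and -0.19 in the 4 fits without the call and from -0.23 to -0.19 over single omissions. The cause was not tested. The deviations of same-numbered arrays correlated above 0.1 in 162 of 267 pairs (mean r 0.14), against 613 of 2394 pairs with different numbers (mean -0.015). Numbers 1 to 5 largely follow the scan days, and since the labels give no shared origin and not every pair passed 0.1, they were not taken to pair the rats. With the replicate number as a block, the count was again 1 (Grin1 1389900_at -0.21, adjusted p = 0.0275), and all other counts stayed at 0. In every other comparison the count of called subunit probe sets was 0 under every alternative run. A pair of uncalled values changed sign: Grin2a 1368985_at in 21PT-AU against 21PT-Y was -0.022 with the actin ratio, and the slope of Grin2c on the time to the platform was -0.019 with scan day as a block. Among 126 other differences and slopes, with an unadjusted p of 0.05 or more, 82 of 1386 values under the alternatives had the other sign and 0 passed the threshold. Fluidics modules nearly follow the groups: 1 module took the 10 NT-Y arrays and another took 8 of 10 from NT-A. Signal near the filter level limits Grin2a, Grin2b and Grin1 1389900_at, and Grin2d was under it.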

Other observations

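Among genes of the receptor's surroundings, Homer1 1370454_at was lower on day 5 in both kinds of aged rat, with a difference of -0.56 ± 0.12 on the log2 scale in 5T-AI against 5T-Y (limma, adjusted p = 0.00112), or -0.48 ± 0.11 without 5T-AI replicate 4, and of -0.71 ± 0.12 in 5T-AU against 5T-Y (adjusted p = 2.09e-05). These comparisons share the 5T-Y rats. On day 21 the same probe set differed by 0.06 ± 0.12 in 21PT-AI and by -0.18 ± 0.12 in 21PT-AU against 21PT-Y, neither called. The change of its age difference from day 5 to day 21, 0.58 ± 0.14, had an unadjusted p of 0.000141 and an adjusted p of 0.753 (limma). Dlg1 1368944_at was higher in 21PT-AU against 21PT-Y by 0.60 ± 0.16 (limma, adjusted p = 0.0291), and by 0.39 ± 0.16 in 21PT-AI against 21PT-Y (adjusted p = 0.291). With the Gapdh and the actin ratio as a covariate the difference in 21PT-AU was 0.37 and 0.29 and not called (limma, adjusted p = 0.266 and 0.556). The genes of the remaining subunit type, Grin3a and Grin3b, had 1 probe set each, which did not pass the filter and were not tested.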
